A study of Mus musculus with 6 samples.

Results

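Transcripts of 9 genes of the Hedgehog pathway were measured here in whole kidneys of mouse embryos at E13.5, in YapCM-/- kidneys and in control kidneys. The genes are the ligands Shh and Ihh, the receptor Ptch1, the signal transducer Smo, the transcription factors Gli1, Gli2 and Gli3, and the inhibitors Sufu and Hhip. They were chosen by name as the core of the pathway, and every probe that the platform annotation assigns to one of them was taken. This gave 20 probes, of 45281 on the array, for 9 of the 19057 genes that the annotation names. The arrays were Illumina bead arrays, read with biotin-labelled cRNA made from total RNA, with 3 arrays of YapCM-/- kidneys and 3 of control kidneys, all on a mixed background of C57BL/6 and 129S1/SvImJ. The question was how transcript levels change on loss of Yap, a coactivator that the Hippo kinases restrain. Neither CM nor the alleles of either group are explained in the labels. From what is known of the study, CM is the cap mesenchyme, a sheath of nephron progenitors at each ureteric bud tip, so that the whole organ also holds cells in which the gene was not targeted. Separate embryos, pools or litters are not named for the replicates, and the p-values measure only the spread between these samples, which may be technical.

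In the absence of ligand, PTCH1 holds SMO inactive, and GLI3 and GLI2 are cut into repressors with the help of SUFU. Ligand binding to PTCH1 frees SMO, the GLI proteins stay whole, and target genes are transcribed, among them Gli1, Ptch1 and Hhip themselves, which makes these 3 genes the usual transcript readout of the pathway. In the developing mouse kidney Shh is made by the epithelium of the ureter and the medullary collecting ducts and acts on the surrounding mesenchyme, where it promotes proliferation and smooth muscle formation, while excess GLI3 repressor impairs kidney formation.

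The values are log2 signals that had been made comparable between arrays before deposit, with a median of 7.30 over the table. They carry no visible background subtraction, so a probe near that median holds mostly background and its fold understates any change of its transcript. A probe was tested where its mean over the 6 arrays was among the highest 50% (above 7.29). The number of arrays limits the precision, and the correlation over tested probes, which are not independent replicates, was 0.983 to 0.993 for the 15 pairs of arrays. Yap1, the targeted gene, read 8.91, 8.72 and 8.99 on the YapCM-/- arrays and 9.75, 9.81 and 9.64 on the control arrays, a difference of -0.86 (SE 0.093, limma adjusted p = 0.0102). The kidney markers were present in both groups: Six2, of nephron progenitors, read 8.39 to 8.52 in YapCM-/- and 8.72 to 8.97 in control kidneys, and Foxd1, of the cortical stroma, read 10.80 to 11.55 in YapCM-/- and 10.77 to 11.39 in control kidneys. The Xist probe was bright on a single array in each group.

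Of the 20 Hedgehog probes 16 passed the filter, for 7 of the 9 genes. By limma, 0 of the 16 had an adjusted p below 0.05, and 0 of the 16 an unadjusted p below 0.05. Over all 22640 tested probes, 0.177% passed the adjusted threshold and 11.5% the unadjusted one. The differences between YapCM-/- and control kidneys were small in both directions: 8 probes were on the positive and 8 on the negative side, with a median of -0.0040, against 0.0014 for all tested probes. The middle absolute difference was 0.07 for the Hedgehog probes and 0.08 for all tested probes. The largest absolute difference, 0.18, was exceeded by 16.8% of all tested probes. The 95% intervals of the 16 differences, which are not adjusted for the number of probes, ran from 0.787-fold at the lowest bound to 1.31-fold at the highest. They are intervals of the signal with background included, and do not bound the change of a transcript read by a dim probe. Adjusted p-values lay between 0.478 and 0.991. With no filter, 0 of all 20 Hedgehog probes had an adjusted p below 0.05 in limma, against 0.0839% of all 45281 probes. At an unadjusted p below 0.05 stood 1 of the 20, a probe of Gli2, against 8.91% of all probes. A p above the threshold does not show that a level was the same, and in RNA of whole kidneys fewer cells of a type and less RNA per cell cannot be told apart.

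**Figure D1:**
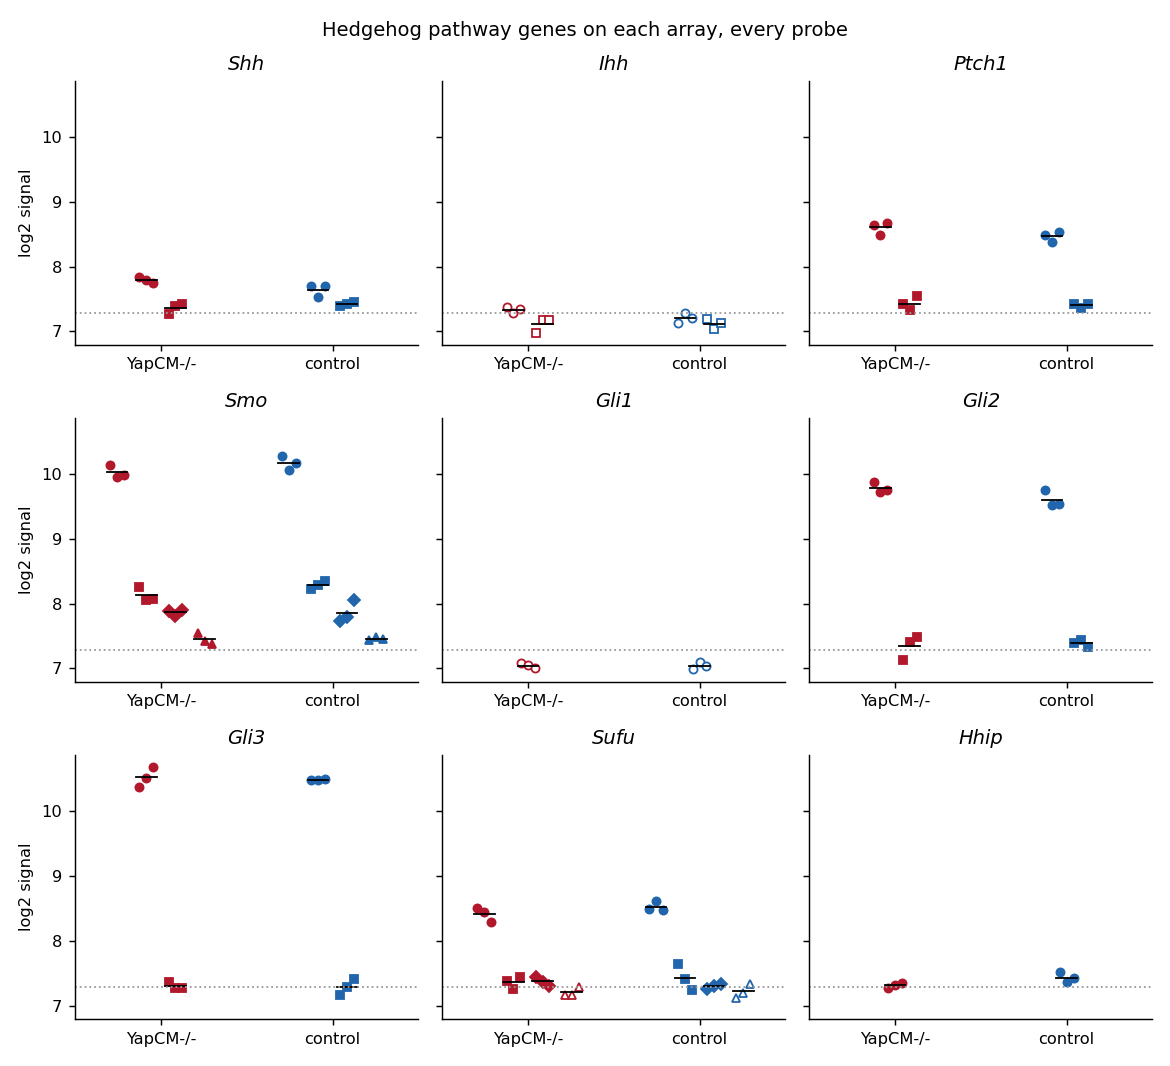
Log2 signal of every probe of the 9 Hedgehog genes, with YapCM-/- arrays left in red and control arrays right in blue; each point is 1 array, each shape is 1 probe of the gene, the black bar is the mean of 3 arrays, open points are probes that were not tested and the dotted line is the filter at 7.29. The groups overlap for most probes, and Gli1 lies below the line on all 6 arrays.

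The GLI-binding consensus was searched in the promoters to show what sequence stands upstream of the pathway's readout genes. The letters GACCACCCA were looked for on both strands in the 250 bases before each start that the RefSeq promoter table of GRCm38.p6 lists. Of the 9 genes 7 had a window, with none printed for Shh and Gli1. An exact match occurred in 0 of these 7 windows, against 0.225% of all 32851 windows, and a match with up to 1 mismatch also in 0 of 7, against 5.79%. With up to 2 mismatches a match stood in 4 of the 7 windows, those of Ihh, Smo, Gli2 and Hhip, against 51.8% of all windows. Hhip is shown because it is a direct target, not because its window stood apart. Among the other genes of the pathway described further on, 26 of 37 had a window. Of their 34 windows 1 held a match with up to 1 mismatch, against 5.79% of all windows. It was 1 of the 3 windows of Pax2. Like Hhip, Pax2 is not shown because it stood apart: its window was picked as the closest match of these 34. Both are shown 5′ to 3′ on the strand of the gene, with the closest match in capitals; the Hhip match is on the printed strand and the Pax2 match on the opposite strand. A match describes letters only and says nothing about binding in these kidneys.
Hhip, chr8:80058009-80058258, minus strand: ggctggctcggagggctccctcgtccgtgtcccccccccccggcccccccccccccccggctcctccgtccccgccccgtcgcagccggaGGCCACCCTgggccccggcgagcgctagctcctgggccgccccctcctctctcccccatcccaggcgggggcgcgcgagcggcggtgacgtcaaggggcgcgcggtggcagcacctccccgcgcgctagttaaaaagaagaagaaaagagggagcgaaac
Pax2, chr19:44746351-44746600, plus strand: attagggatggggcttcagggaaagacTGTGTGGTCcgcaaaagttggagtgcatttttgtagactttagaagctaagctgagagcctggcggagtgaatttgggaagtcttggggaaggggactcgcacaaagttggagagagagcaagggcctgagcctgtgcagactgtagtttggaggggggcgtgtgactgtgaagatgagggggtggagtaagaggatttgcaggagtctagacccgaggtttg

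Among the ligands, Shh was slightly higher in all 3 YapCM-/- kidneys on its brighter probe, without passing the test. That probe, ILMN_2610013, read 7.85, 7.79 and 7.74 on the YapCM-/- arrays and 7.70, 7.53 and 7.70 on the control arrays. The groups did not overlap, with the lowest YapCM-/- array only just above the highest control arrays; 8.11% of all tested probes separated in this direction. Its log2 difference was 0.15 (SE 0.081, 95% interval -0.03 to 0.33, limma adjusted p = 0.530). The second Shh probe, ILMN_2802979, stood on the other side, at 7.27, 7.39 and 7.42 in YapCM-/- kidneys and 7.40, 7.42 and 7.46 in control kidneys. Here the groups overlapped and the difference was -0.06 (SE 0.077, interval -0.24 to 0.11, adjusted p = 0.811). Ihh, known as the ligand of growing cartilage and gut, had 2 probes and neither was tested. ILMN_2699737 read 7.37, 7.29 and 7.34 in YapCM-/- kidneys and 7.13, 7.29 and 7.21 in control kidneys. All 3 YapCM-/- values were above the control values, by 0.0048 on the log2 scale at the closest pair of arrays, a separation that 5.28% of the dim, untested probes showed in this direction. When all probes were tested without a filter its difference was 0.13 (adjusted p = 0.624). The other Ihh probe, ILMN_2586246, was lower still on the array, with means of 7.11 in YapCM-/- and 7.12 in control kidneys.

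Ptch1, the receptor and also a target of the pathway, was not called on either probe. The brighter probe, ILMN_2460224, read 8.65, 8.49 and 8.68 on the YapCM-/- arrays and 8.49, 8.39 and 8.53 on the control arrays. The mutant mean was the higher one, but YapCM-/- replicate 2 lay below control replicates 1 and 3. The difference was 0.14 (SE 0.084, interval -0.05 to 0.32, adjusted p = 0.585). The dimmer probe, ILMN_1248463, differed by 0.02 (interval -0.16 to 0.21, adjusted p = 0.947). Smo, the membrane protein that passes the signal on, had 4 tested probes, of which the 2 brightest were on the negative side. ILMN_2986978 read 10.14, 9.96 and 9.98 in YapCM-/- kidneys and 10.29, 10.07 and 10.17 in control kidneys. YapCM-/- replicates 2 and 3 were below every control array and replicate 1 was not, which gave a difference of -0.15 (SE 0.089, interval -0.34 to 0.05, adjusted p = 0.578). ILMN_2741614 read 8.26, 8.06 and 8.07 in YapCM-/- kidneys and 8.23, 8.28 and 8.35 in control kidneys. The same replicate 1 overlapped the control arrays, and the difference was -0.16 (SE 0.085, interval -0.35 to 0.03, adjusted p = 0.531). The remaining Smo probes, ILMN_2741611 and ILMN_1236330, differed by 0.0047 and -0.01 with groups that overlapped.

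The GLI factors, the transcriptional end of the pathway, included the Hedgehog probe with the smallest p and also the dimmest one. Gli1, the activator that is itself switched on by Hedgehog signals, had a single probe, ILMN_2774992, which read 7.08, 7.05 and 7.00 on the YapCM-/- arrays and 7.00, 7.10 and 7.04 on the control arrays. All 6 values lay under the array median of 7.30, so this probe does not stand above background and bears little on the readout gene. Without a filter its difference was -0.0019 (adjusted p = 0.996). Gli2, the main activator of the family, read 9.88, 9.73 and 9.75 in YapCM-/- kidneys and 9.75, 9.52 and 9.53 in control kidneys on ILMN_2522863. The YapCM-/- arrays were above control replicates 2 and 3, and control replicate 1 fell among them. The difference of 0.18 (SE 0.090, interval -0.02 to 0.38, adjusted p = 0.478) had the smallest p of the 16 tested probes. The second Gli2 probe, ILMN_2668750, differed by -0.05 (interval -0.27 to 0.17, adjusted p = 0.901), and YapCM-/- replicate 1, at 7.13, was its lowest array.

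Gli3, the main repressor of the family, was well above background on ILMN_2449396, with 10.37, 10.52 and 10.68 in YapCM-/- kidneys and 10.49, 10.49 and 10.50 in control kidneys. The control arrays were nearly identical (SD 0.0040, n = 3), and the YapCM-/- arrays spread on both sides of them (SD 0.154, n = 3). The means differed by 0.03 (SE 0.090, interval -0.17 to 0.23, adjusted p = 0.933). The dim Gli3 probe, ILMN_1215183, which passed the filter narrowly with a mean of 7.30, differed by 0.01 (adjusted p = 0.973).

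The inhibitors were on the negative side on their brightest probes. Sufu, the protein that holds GLI factors in the cytoplasm, read 8.51, 8.45 and 8.29 in YapCM-/- kidneys and 8.49, 8.62 and 8.47 in control kidneys on ILMN_2441176. YapCM-/- replicate 1 lay among the control arrays, and the difference was -0.11 (SE 0.088, interval -0.31 to 0.08, adjusted p = 0.688). Its other 2 tested probes, both dim, differed by -0.07 and 0.07, and an untested probe, ILMN_3127458, by -0.01. Hhip, a membrane protein that binds and sequesters ligand and is a direct target, read 7.27, 7.32 and 7.35 on the YapCM-/- arrays and 7.51, 7.36 and 7.43 on the control arrays on its single probe. The groups did not overlap, by 0.0090 at the closest arrays, as was so for 8.41% of all tested probes in this direction. The difference was -0.12 (SE 0.077, interval -0.29 to 0.05, adjusted p = 0.609), at a level close to the array median.

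**Figure D2:**
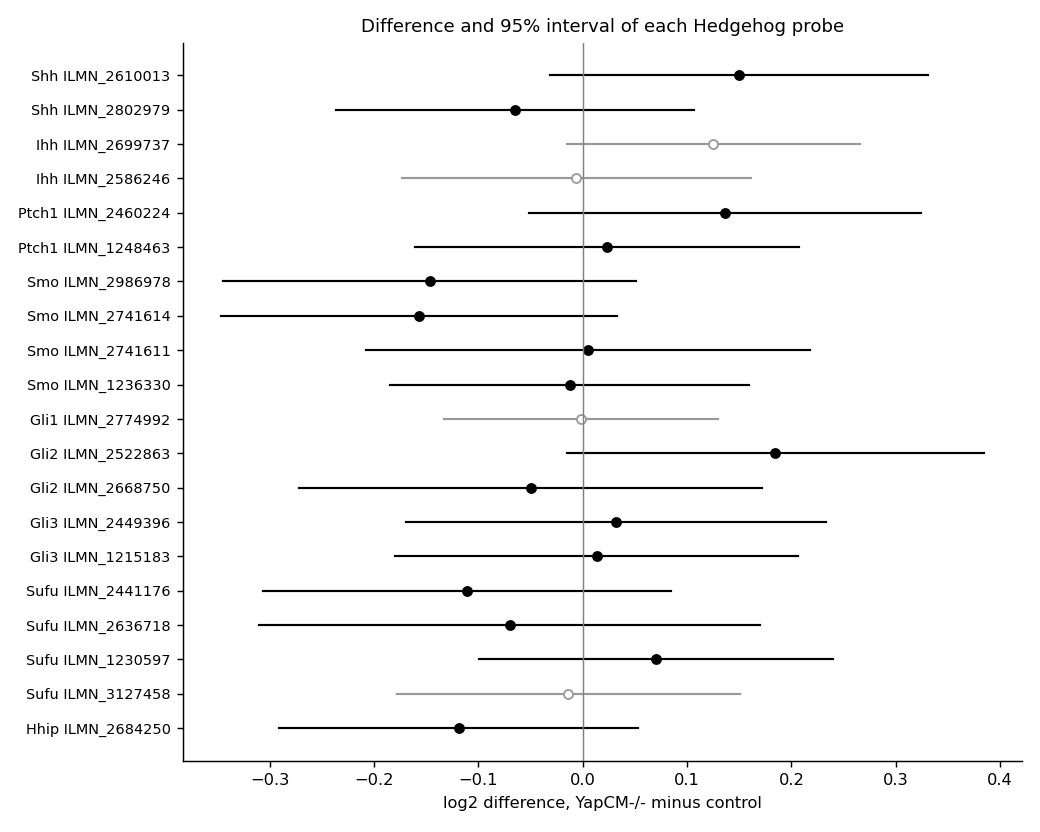
Log2 difference, YapCM-/- minus control, of each of the 20 Hedgehog probes with its 95% interval; filled points are the 16 tested probes and open grey points the 4 others, taken from the fit without a filter. Every interval includes 0.

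Probes of 1 gene did not always point the same way. Of the 6 genes with more than 1 tested probe, 4 (Shh, Smo, Gli2 and Sufu) had probes of both signs. Only Ptch1, on the positive side, and Gli3, close to 0, had a single sign. The probe with the sign opposite to the brightest one was dim for Shh, Gli2 and Sufu. Its means were 7.39, 7.37 and 7.34, near the array median of 7.30. For Smo it differed by 0.0047. The signs of such probes say little about the transcript. The part of the transcript that each probe covers was not analysed here. The direct targets also gave no clear direction: the brighter Ptch1 probe was at 0.14 and Hhip at -0.12, and both intervals include 0. Hhip, at a mean of 7.37, lay close to the array median, and Gli1 did not stand above background. Among these targets the reading therefore rests mainly on Ptch1. Over all 16 tested probes the groups did not overlap at 2, or 12.5%, against 16.5% of all tested probes.

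The variation of the brighter Ptch1 probe between arrays resembled that of a small share of other genes. Of the other 11755 tested genes 57 followed it with a Pearson r of at least 0.95 over the 6 arrays. The 5 with the highest values were Zfp87 (r = 0.995), Slc35e3 (r = 0.986), Dhx30 (r = 0.986), Gabrp (r = 0.985) and Psap (r = 0.984). Those values describe likeness over 6 arrays only, which share their normalization. The differences of these 5 genes ran from 0.18 for Gabrp to 0.30 for Dhx30 (limma adjusted p = 0.397). Their positive sign was largely set by picking genes that follow a probe with the higher mean in YapCM-/- kidneys.

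**Figure D3:**
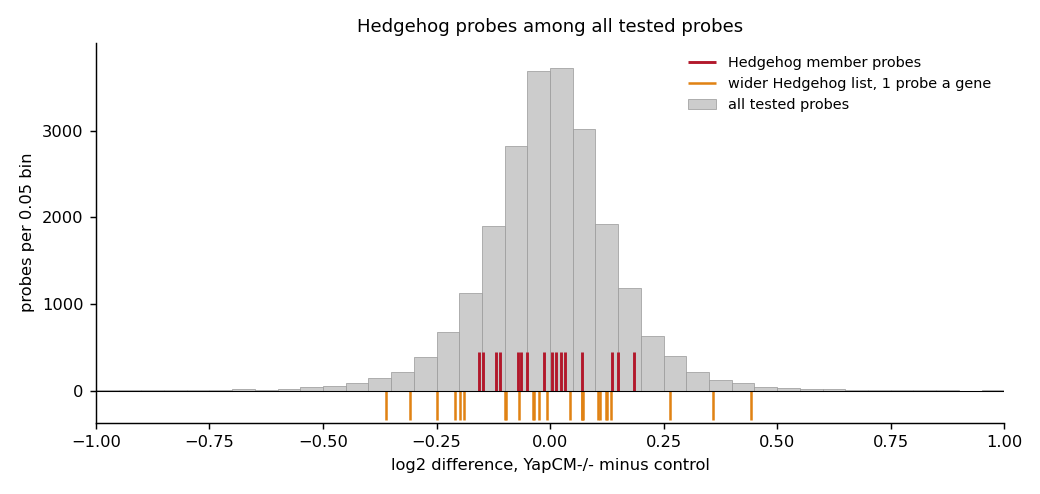
Number of tested probes in each 0.05 bin of the log2 difference, YapCM-/- minus control (grey bars, axis limited to the range from -1 to 1), with the 16 Hedgehog probes as red lines above 0 and the 25 tested genes of the wider pathway as orange lines below it. The red lines lie between -0.16 and 0.18, inside the bulk of all probes.

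The wider pathway was read through 37 more genes, of which 34 had a probe and 25 a tested one. In limma 0 of these 25 genes passed the adjusted threshold, against 0.264% of all 11762 tested genes. At an unadjusted p below 0.05, 3 were higher, against 6.60% of all tested genes, and 3 lower, against 6.86%. The groups did not overlap at 6 of the 25 genes, or 24.0%, against 18.0% of all tested genes. Their median difference was -0.0070, against 0.0039 for all tested genes. The 9 genes without a tested probe included Gas1, a coreceptor, Kif7, a ciliary kinesin that regulates GLI proteins, and Mycn.

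Of the genes that make and release ligand, 3 of 7 were tested. Disp1, the membrane protein that releases lipid-modified ligand from the producing cell, read 8.89, 9.13 and 9.09 on the YapCM-/- arrays and 8.61, 8.39 and 8.78 on the control arrays. All YapCM-/- arrays were above all control arrays, which held for 8.94% of tested genes. The difference of 0.44 (SE 0.111, interval 0.19 to 0.69) was the largest in size of the 25 genes and did not pass (adjusted p = 0.196). Hhat, the acyltransferase that adds palmitate to the ligand, stood at 0.10 (adjusted p = 0.775), with other probes at 0.26 and 0.02, and Scube3, of a family that helps release ligand, at -0.04 (adjusted p = 0.918), with another probe at 0.03. Of the coreceptors and the second patched receptor, 2 of 4 genes were tested. Cdon was at -0.10 (adjusted p = 0.719) and Boc at 0.07 (adjusted p = 0.789), both immunoglobulin-family proteins that present ligand to PTCH1.

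Of the genes of signal transduction and GLI processing, 12 of 16 were tested and 0 passed in limma, with an unadjusted p below 0.05 for 2 on the higher side (6.60% of all tested genes) and 1 on the lower side (6.86%). Gsk3b, a kinase that marks GLI proteins for processing and also acts in Wnt signalling, read 10.42, 10.56 and 10.78 in YapCM-/- kidneys and 10.16, 10.10 and 10.41 in control kidneys. The groups just failed to overlap, as for 8.94% of tested genes in this direction, and the difference was 0.36 (SE 0.114, adjusted p = 0.273), with a dimmer probe at 0.07. Mgrn1, a ubiquitin ligase that lowers surface SMO, was at 0.26 (adjusted p = 0.416). Csnk1a1, a casein kinase that phosphorylates GLI proteins, was at -0.21 (adjusted p = 0.431) on a dim probe.

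Genes described as downstream of Hedgehog or GLI3 in kidney or other organs were tested for 8 of 10, and 6 of the 8 were on the negative side, as were 5743 of all 11762 tested genes. Their median was -0.08, against 0.0039 for all tested genes. In limma 0 passed the adjusted threshold. At an unadjusted p below 0.05 stood 2, both on the lower side, against 6.86% of all tested genes in that direction. Pax2, a transcription factor of the kidney lineages that GLI3 repressor lowers in mouse kidney and that is also a general marker of nephron progenitors, read 7.50, 7.36 and 7.57 in YapCM-/- kidneys and 7.74, 7.95 and 7.82 in control kidneys. The groups did not overlap, as was so for 9.06% of tested genes in this direction. The difference was -0.36 (SE 0.090, interval -0.56 to -0.16, limma adjusted p = 0.193), the smallest p of the 25 genes. An untested Pax2 probe, below the array median at a mean of 7.07, was at 0.04 with groups that overlapped. Foxf1, a forkhead factor of visceral mesenchyme and a Hedgehog target in gut and lung, read 7.19, 7.20 and 7.25 in YapCM-/- kidneys and 7.39, 7.39 and 7.45 in control kidneys. The arrays agreed closely within each group, near the array median, and the difference was -0.20 (SE 0.073, adjusted p = 0.340). Bmp4, a growth factor of the ureteric mesenchyme, was at -0.31 (SE 0.145, adjusted p = 0.462), with a dim probe at -0.04.

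**Figure D4:**
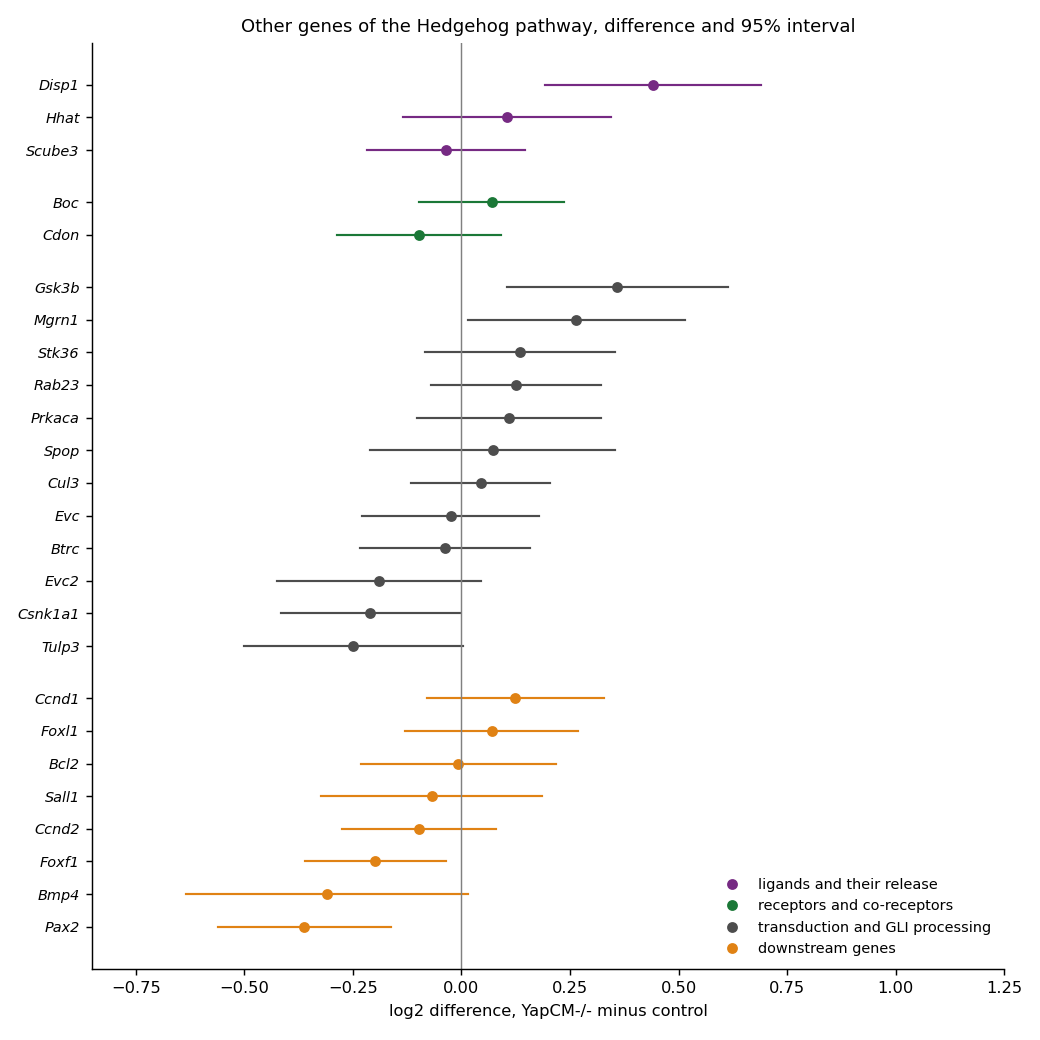
Log2 difference, YapCM-/- minus control, with its 95% interval for the 25 tested genes of the wider pathway, coloured by role; each point is the brightest tested probe of the gene. Disp1 has the highest value, 0.44, and Pax2 the lowest, -0.36; the intervals are not adjusted for the number of genes.

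Markers of the cells that send and receive the signal were read on the same arrays, and their part in the values given was not tested. In the epithelium of the ureteric stalk and ducts, where Shh is made, 0 of 6 tested markers passed, and their mean log2 signal was 9.49 to 9.66 in YapCM-/- kidneys and 9.50 to 9.57 in control kidneys. Cdh1 was at -0.20 (adjusted p = 0.427), with a dim probe at 0.02, and Wnt7b at 0.20 (adjusted p = 0.537). In the ureteric mesenchyme and smooth muscle, which respond to the ligand, 0 of 6 tested markers passed, of 9 listed. Their mean signal was 8.78 to 8.85 in YapCM-/- and 8.70 to 8.79 in control kidneys. The smooth muscle genes Tagln, Cnn1 and Myh11 lay below the array median, had no tested probe and do not enter this count. Des, the muscle filament desmin, was at -0.27 (adjusted p = 0.246) and Tshz3, a regulator of ureteric smooth muscle, at 0.25 (adjusted p = 0.397). In the renal stroma 0 of 7 passed, with Pdgfrb at -0.32 (limma adjusted p = 0.273). Aldh1a2, a retinoic acid synthesising enzyme, was at 0.36 (adjusted p = 0.312), with another tested probe at 0.15. In the cap mesenchyme 1 of 6 passed, against 0.264% of all tested genes: Cited1, which fell by 0.72 on the log2 scale (adjusted p = 0.00662). The other members went both ways, with Six2 at -0.36 (adjusted p = 0.193) and Meox1 at -0.18, and with Eya1 at 0.34 (adjusted p = 0.242), Crym at 0.22 and Osr1 at 0.07; the last 3 and Meox1 were named after their values were seen. Cartilage, another site of Ihh, had 2 tested markers, Col9a1 at 0.26 (limma adjusted p = 0.574) and Col2a1 at 0.05 (adjusted p = 0.936). Their other tested probes were at 0.11 for Col9a1 and at -0.03 and 0.05 for Col2a1. In gonad and adrenal tissue the only tested marker of 5 was Cyp11a1 at 0.0060 (adjusted p = 0.988). Endothelial Tek was at 0.20 (limma adjusted p = 0.381) and Pecam1 at -0.07 (adjusted p = 0.828), with another tested Pecam1 probe at 0.09. The erythroid genes Hba-a1 and Alas2 were at 0.24 (adjusted p = 0.462) and 0.11 (adjusted p = 0.773).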

How the data were processed

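The deposited table used here holds log2 signals of 45281 probes on 6 arrays of embryonic kidneys. Its sorted columns differ by at most 0.00608, as quantile normalization leaves them; of the software behind these log2 values the labels say nothing. Another deposited table, not normalized, has 12 columns of per-sample values whose names match no sample's labels, and was not used. Probes were named through the platform annotation, and the gene identifiers of all 20 Hedgehog probes matched the same symbols in the RefSeq table of GRCm38.p6.

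YapCM-/- arrays were compared with control arrays with limma 3.58.1 (lmFit, eBayes) under R 4.3.3 in a two-sided test that had no covariates. Tested were the 22640 probes in the upper 50% by mean over all 6 arrays, with Benjamini-Hochberg adjustment over all of them and a threshold of 0.05. Each adjusted p in the text is from this fit unless the fit without a filter is named. Intervals are the 95% intervals of the moderated fit. In the wider pathway and the marker lists the brightest tested probe stood for a gene; named are, per role, the 3 genes with the smallest p, and per marker list 2. The fit was tested on simulated data, where it called 3.9% of the probes given an effect of 0.25. It called 77.3% at an effect of 0.5 and 99.7% at 1, and 9.33% of its calls were false. That is above the share that a threshold of 0.05 aims at. Each of the 10 simulated runs held 200 changed probes. The recovered share depends on how many probes change, and the real data gave 40 calls, so it may be lower there. Small differences would therefore mostly be missed. Promoter windows were read with Python 3.11.15. The 9 genes, the lists and the tests were chosen with earlier results of these data known. Alternatives covered the filter, the threshold, array weights, trend and robust options of eBayes, averaging the probes of a gene, a block for the replicate number, background subtraction, cyclic loess, the Xist signal as a covariate and each array left out in turn.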

Additional observations from a re-analysis of the deposited data

How the results depend on the processing

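The count of Hedgehog probes past the threshold stayed at 0 in each alternative run, and so did that of the 25 genes of the wider pathway; the smallest adjusted p was 0.365 for a Hedgehog probe and 0.102 for a wider gene, both with the replicate number as a block. Over all probes the count of 40 moved to 26 among the brightest 25% and also for gene means, 64 with trend and robust options, 138 with the replicate block, 0 with background subtracted, 67 with the Xist covariate and 87 at a threshold of 0.10. With 1 array left out it ran from 6 (without control replicate 3) to 27; leaving out control replicate 1 gave 9, control replicate 2 gave 12 and YapCM-/- replicate 2 gave 25. Whether the replicate numbers pair the arrays is not said in the labels and stays unknown. The deviations of same-numbered arrays correlated at 0.132, 0.142 and -0.0212, and 2 of 6 arrays correlated best with the array of their own number.

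The alternatives for the filter, the eBayes options and the replicate block leave a difference unchanged by construction, so its sign cannot move there. The mean of a gene's probes was compared with its brightest probe only. Of 237 values of the 16 tested Hedgehog probes under all alternatives, these included, 226 kept their sign and 11 did not. All 11 were with 1 array left out and at probes close to 0. Their ranges with 1 array left out were -0.0348 to 0.0758 for the dimmer Ptch1 probe, -0.0570 to 0.0996 and -0.0583 to 0.0228 for Smo ILMN_2741611 and ILMN_1236330, -0.121 to 0.0543 for the dimmer Gli2 probe, -0.0470 to 0.107 for the brighter and -0.0491 to 0.0760 for the dimmer Gli3 probe, and -0.167 to 0.0361 for Sufu ILMN_2636718. With background subtracted the Shh probes stood at 0.39 and -0.29, against 0.15 and -0.06 without subtraction. The mean of both Shh probes without subtraction differed by 0.04. After subtraction Hhip stood at -0.52, Sufu ILMN_1230597 at 0.33 and the dimmer Gli2 probe at -0.29. Each of these subtracted values had a limma adjusted p of 0.483 or more. The number of arrays and the background under the dim probes limit these values; Gli1 and Ihh had no tested probe.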
